A study of Mus musculus with 8 samples.

Results

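The liver releases a group of defence proteins into the blood during infection or injury, and 10 genes of this group that lie outside the serum amyloid A family were followed here in ribosome footprints of mouse liver. They were chosen by name, with earlier results of these data known. The genes are Fgl1, pentraxins Apcs and Crp, orosomucoids Orm1 and Orm2, scavengers Hp and Hpx, endotoxin-binding proteins Lbp and Cd14, and Lrg1. All 10 had a value in the authors' deposited table, which holds 7500 genes of 10398 tested. The largest p-value of the authors' edgeR test in it is 0.767, so genes with little sign of a change can lack a value. Ribosome profiling sequences the pieces of mRNA that ribosomes shield from nuclease, so the footprints on a coding sequence count the ribosomes translating it. Livers came from male wild-type FVB/N mice that received a torula yeast diet low in selenium from 3 weeks of age, for 6 weeks, with either no added selenium (0 Se, 2 mice, 4 libraries) or 0.1 ppm selenium as sodium selenite (0.1 Se, 2 mice, 4 libraries).

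Acute-phase proteins are made mainly by hepatocytes. Interleukin-6 binds its receptor Il6ra and the shared subunit gp130 on these cells, Jak kinases then activate the transcription factor Stat3, and interleukin-1 acts in parallel through NF-kB, while C/EBP factors take part under both signals. Positive acute-phase proteins increase in blood under these signals, whereas negative ones such as albumin and transthyretin decrease. In the mouse, Apcs and the orosomucoids are strong responders, and Crp, a leading marker of inflammation in people, responds weakly.

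The table gives 1 fold change, 1 p-value and 1 average abundance (log2 CPM, the logarithm of counts scaled to library size) per gene for the diet comparison, and no value of a single mouse was analysed here. Footprint numbers below are sums over the libraries of a diet after scaling to a common depth of 7469585 per diet. They were worked out from the deposited values, as whole numbers for Orm2 and Cd14 and as estimates for the other 8 genes. Levels of different genes are set side by side as RPKM, the footprints per kb of counted coding sequence scaled, as CPM are, to the total. A gene was called at an adjusted p under 0.05 and over 1.5-fold, the study's thresholds. The intervals are 95% intervals implied by the authors' p-values, which rest on 1 dispersion shared by all genes, so extra spread of a single gene between mice is not in them. Hepatocyte genes dominated the footprints, with Alb at 711864 on 0 Se and 653772 on 0.1 Se. None of the 6 red cell markers and 1 of 10 neutrophil markers had a value. A missing value does not show low expression, and the hepatocyte markers Cps1 and Tdo2 also had none.

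All 10 genes had more footprints on 0.1 Se than on 0 Se. Of these, 2 were called, Fgl1 and Apcs, where 0.769% of all genes tested were called higher and 1.03% were called in either direction. The change of Fgl1 was 3.32-fold and that of Apcs 1.51-fold. An unadjusted p under 0.05 with a higher value on 0.1 Se was found for 8 of the 10, against 4.44% of all genes tested. The 10 genes share inducing signals and the same 2 mice per diet, so they are not 10 separate observations. They were also chosen with earlier results of these data known, so these shares do not test the group. The median log2 fold change of the 10 genes was 0.53, or 1.45-fold, and it was still 0.53 without Fgl1. Over the 7500 genes with a value it was 0.06, and 50.4% of them were higher on 0.1 Se. The 2898 tests without a value are in neither figure. The footprints of the 10 genes together went from 54693 on 0 Se to 78368 on 0.1 Se, which is 0.732% and 1.05% of all footprints. In footprints of whole liver, more cells of a type, more mRNA per cell and more ribosomes per mRNA cannot be told apart.

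**Figure D1:**
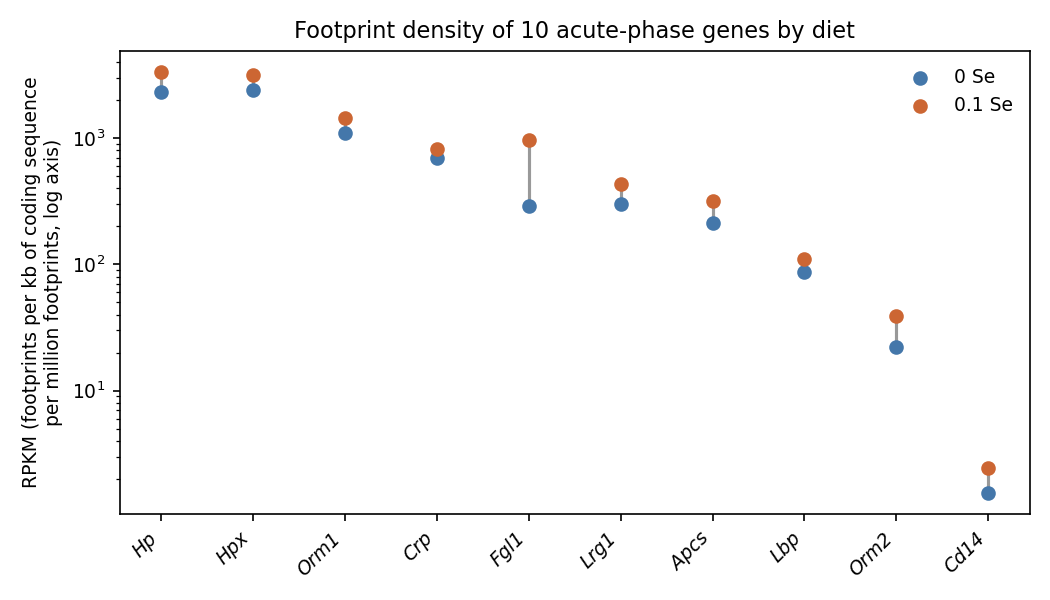
RPKM (log axis), the footprints per kb of counted coding sequence scaled to the total, for each of the 10 genes, with 1 point for 0 Se and 1 for 0.1 Se, each from the summed libraries of 2 mice. Every 0.1 Se point lies above its 0 Se point, the levels run from 3358 (Hp, 0.1 Se) down to 1.54 (Cd14, 0 Se), and Fgl1 has the widest gap.

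On 0 Se, the levels in RPKM spanned more than 3 orders of magnitude. Hpx with 2400 and Hp with 2324 were the highest, and Orm1 with 1098 and Crp with 691 came next. Lrg1 with 299.5, Fgl1 with 293 and Apcs with 212 formed a middle group, Lbp had 87.1, Orm2 had 22.1 and Cd14 had 1.54. On 0.1 Se the order changed at 2 points. Hp with 3358 stood above Hpx with 3178, and Fgl1 with 971 moved above Lrg1, with 434, and also above Crp, with 825. The levels of Orm1 and Orm2 may be too low, because only reads with a unique place were counted and these genes share much sequence. No spread between mice was at hand for these levels, so no order of close neighbours such as Hp and Hpx was tested.

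Fgl1 encodes a fibrinogen-like protein that hepatocytes secrete, which promotes hepatocyte growth and is a ligand of the inhibitory lymphocyte receptor LAG-3. The gene lies on chromosome 8 (42276788 to 42300510, minus strand, mm9) and has 8 exons, of which 7 are coding. Its footprints went from 1934 on 0 Se to 6418 on 0.1 Se, and its RPKM from 293 to 971. Fgl1 rose by 1.73 on the log2 scale in the authors' deposited table, with an interval of 1.40 to 2.06 and an adjusted p of 1.74e-21 in edgeR. In folds, the interval ran from 2.64 to 4.16, so its lower end was above the study's threshold. Among the alternatives run, its call was lost with a biological coefficient of variation (how far mice vary as a share of the mean) of 0.3, where the adjusted p of the exact test was 0.172. The authors' p-values imply a coefficient of 0.11 if each diet entered as 2 joined libraries, or 0.156 if it entered as 4. With 4, libraries of the same mouse would have counted as independent. Fgl1 ranked 42nd by fold change among the 7500 genes. Of the other 9 genes, 8 had an interval wholly below that of Fgl1, and the wide interval of Cd14 overlapped it. No pair among those 9 had intervals that lay apart. Fgl1 was the reference because its change was the largest of the 10. How many of all genes had an interval below that of Fgl1 was not counted, so this is no trait of the group. Fgl1 held 3.54% of the footprints of the 10 genes on 0 Se and 8.19% on 0.1 Se, and contributed 18.9% of their added footprints.

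**Figure D2:**
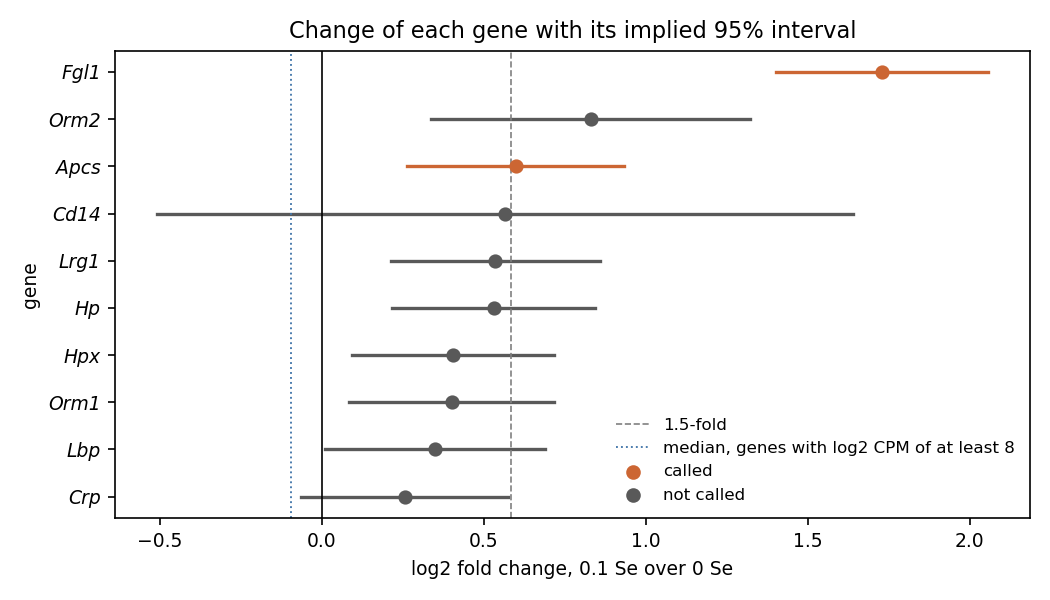
Log2 fold change of 0.1 Se over 0 Se for each gene (points) with its implied 95% interval (bars), ordered by size, with called genes in orange and lines at 0, at 1.5-fold and at the median of abundant genes (log2 CPM 8 or more). The interval of Fgl1 starts at 1.40, those of Crp and Cd14 include 0, and the other 7 lie above 0.

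The pentraxins are ring-shaped proteins that bind microbial surfaces and cell debris and recruit complement. Apcs, serum amyloid P component, and Crp, C-reactive protein, lie on chromosome 1 (Apcs 174824093 to 174825185, minus strand; Crp 174628187 to 174630097, plus strand, mm9), 194 kb apart, with 2 exons each and coding sequences that are 58.1% identical. Apcs had 973 footprints on 0 Se and 1472 on 0.1 Se. Apcs rose by 0.60 on the log2 scale, or 1.51-fold, with an interval of 0.26 to 0.93 on the log2 scale and an edgeR adjusted p of 0.0473 in the authors' deposited table. Both values stood close to the thresholds, and the call was lost with a 2-fold threshold, with Bonferroni adjustment, with a biological coefficient of variation of 0.2, and when genes of moderate abundance, at log2 CPM 4 to 6, were set to a median of 0 (log2 fold change 0.52, adjusted p 0.141). Crp had 3189 footprints on 0 Se and 3807 on 0.1 Se. Its log2 fold change of 0.26, or 1.19-fold, was the smallest of the 10, with an interval of −0.06 to 0.57 that includes 0 and an unadjusted p of 0.117 in the authors' edgeR test. The intervals of Apcs and Crp overlapped, and the difference between them was not tested.

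The orosomucoids, also called alpha-1-acid glycoproteins, are heavily glycosylated carriers of lipids and drugs in plasma. Orm1 (63005594 to 63009197) and Orm2 (63023483 to 63026912) lie on the plus strand of chromosome 4 (mm9), 14.3 kb apart, with Orm3, which had no value, between them. The coding sequences of Orm1 and Orm2 are 89.9% identical. Stretches of them are shown because reads counted only at unique places could separate the genes in one stretch and not in the other. The first lies in coding exon 2 (coding bases 138 to 197, Orm1 chr4:63006123-63006182 and Orm2 chr4:63023998-63024057, plus strand, mm9) and differs at 17 of 60 bases, printed in capitals.
Orm1: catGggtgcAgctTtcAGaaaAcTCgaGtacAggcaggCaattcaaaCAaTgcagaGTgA
Orm2: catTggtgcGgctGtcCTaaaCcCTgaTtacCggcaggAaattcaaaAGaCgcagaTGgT
The other stretch lies in coding exon 5 (coding bases 442 to 501, Orm1 chr4:63007318-63007377 and Orm2 chr4:63025198-63025257) and holds no difference, so it is in lower case throughout.
Orm1: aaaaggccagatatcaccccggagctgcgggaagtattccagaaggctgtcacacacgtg
Orm2: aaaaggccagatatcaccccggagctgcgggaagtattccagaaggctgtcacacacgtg

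Of the 30-base windows of the Orm1 coding sequence, 18.2% occur unchanged in another gene and 51.8% do so within 2 mismatches. For Orm2 the shares were 24.7% and 63.2%, and for the 8 genes outside this family they were 0%. The division of footprints between Orm1 and Orm2 is therefore uncertain. Orm1 had 4626 footprints on 0 Se and 6108 on 0.1 Se, a log2 fold change of 0.40 (interval 0.08 to 0.72) with an edgeR adjusted p of 0.367. Orm2 had 93 footprints on 0 Se and 164 on 0.1 Se. The ratio of these sums was 1.76, with an exact Clopper-Pearson interval of 1.36 to 2.30 that covers counting error only. In the authors' deposited table its log2 fold change was 0.83 (interval 0.34 to 1.32), and its edgeR adjusted p of 0.0763 missed the threshold. Orm1 and Orm2 have the same counted length of 564 bases, and Orm1 had 49.7 times the footprints of Orm2 on 0 Se and 37.2 times on 0.1 Se. These ratios may be too high, because reads without a unique place were not counted and the shared part is larger for Orm2. The sum of both went from 4719 to 6272, or 1.33-fold.

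Haptoglobin (Hp) captures haemoglobin freed from red cells, and hemopexin (Hpx) captures free haem, and both carry their cargo back to the liver or to macrophages. Hp lies on chromosome 8 (112099030 to 112103072, minus strand, 5 exons) and Hpx on chromosome 7 (112740127 to 112748630, minus strand, 10 exons, mm9). They held 74.6% of the footprints of the 10 genes on 0 Se. Hp had 17079 footprints on 0 Se and 24679 on 0.1 Se, a log2 fold change of 0.53 (interval 0.22 to 0.84) with an edgeR adjusted p of 0.0733. Hpx had 23717 and 31410, a log2 fold change of 0.41 (interval 0.09 to 0.72) with an edgeR adjusted p of 0.340. Neither was called, since both lay under 1.5-fold and above the adjusted p threshold. They nevertheless accounted for 15294 of the 23675 footprints that the 10 genes gained, or 64.6%.

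Lbp, lipopolysaccharide-binding protein, takes bacterial endotoxin from the blood and hands it to Cd14, which passes it to the receptor Tlr4. Lbp lies on chromosome 2 (158132229 to 158158588, plus strand, 15 exons) and Cd14 on chromosome 18 (36884728 to 36886390, minus strand, 2 exons, mm9). Lbp had 902 footprints on 0 Se and 1149 on 0.1 Se, a log2 fold change of 0.35 whose interval of 0.01 to 0.69 barely cleared 0, with an edgeR adjusted p of 0.603. Cd14 had 12 footprints on 0 Se and 19 on 0.1 Se. Their ratio was 1.58 with an exact Clopper-Pearson interval of 0.730 to 3.58, so a difference was not detectable at this depth, and the edgeR adjusted p was 0.985. Cd14 was the only one of the 10 genes with a log2 CPM under 3.

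Cd14 is also a surface protein of macrophages, so the markers of Kupffer cells, the resident macrophages of liver, were set beside it. Of 13 markers 12 had a value and Cd68 had none. Of the 12, 9 were higher on 0.1 Se and 0 were called by the authors' edgeR test, where 4 had an unadjusted p under 0.05. Their median log2 fold change was 0.34 and their summed footprints went from 4428 to 5528. The part of these cells in the value of Cd14 was not tested. For endotoxin recognition outside Lbp and Cd14, 3 of 8 listed genes had a value, Ticam1, Tlr4 and Ly86. Tlr4 had 15 footprints on 0 Se and 20 on 0.1 Se, too few to detect a difference of this size.

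Lrg1, leucine-rich alpha-2-glycoprotein, is secreted by hepatocytes and modifies TGF-beta signalling in blood vessels. It lies on chromosome 17 (56259103 to 56261369, minus strand, 2 exons, mm9). Its footprints went from 2168 on 0 Se to 3142 on 0.1 Se. The log2 fold change was 0.54 (interval 0.21 to 0.86), or 1.45-fold, with an edgeR adjusted p of 0.0840. Lrg1, Hp and Orm2 were the 3 genes with an adjusted p between 0.05 and 0.1.

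**Figure D3:**
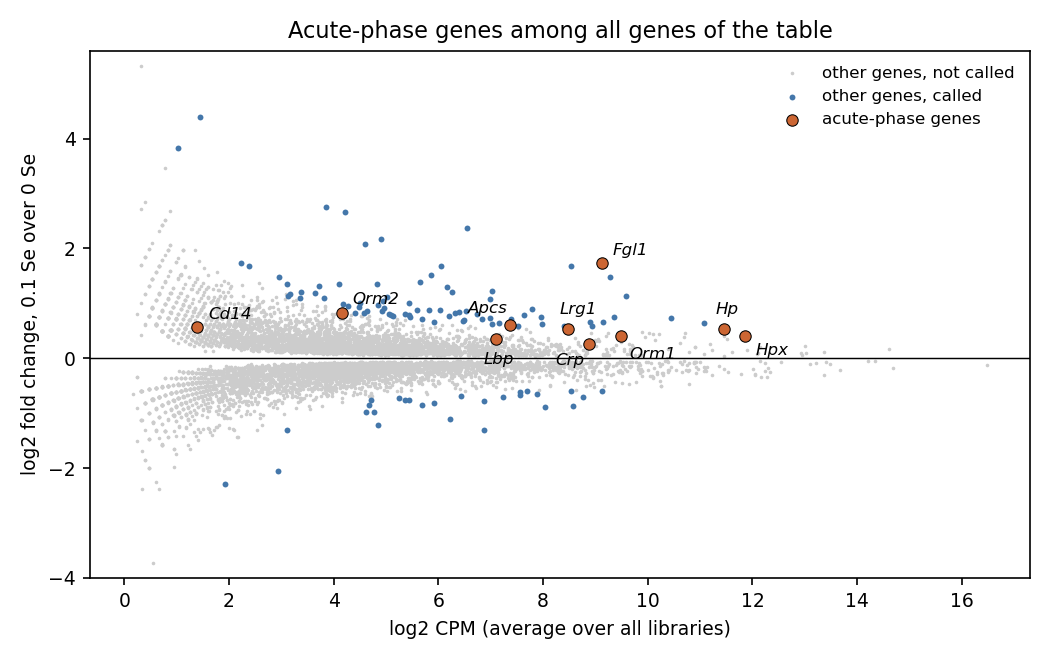
Log2 fold change of 0.1 Se over 0 Se against log2 CPM (average over all libraries) for all 7500 genes of the authors' deposited table (grey, called genes in blue), with the 10 acute-phase genes in orange. The 6 of them at log2 CPM 8 or more lie above 0, in a range where 33.3% of the genes with a value do.

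Abundant genes as a class leaned the other way. Of the 402 genes with a value at log2 CPM 8 or more, 33.3% were higher on 0.1 Se and their median log2 fold change was −0.10. Among them, 11 were called higher and 5 lower. The 6 acute-phase genes in this class, Fgl1, Crp, Orm1, Hp, Hpx and Lrg1, were all higher. Centring on this class raised every log2 fold change by the same amount. Called genes then numbered 148 in all, 130 higher (1.25% of those tested) and 18 lower, against 80 higher and 27 lower as deposited, and 5 of the 10 acute-phase genes were among them, namely Fgl1, Apcs, Orm2, Hp and Lrg1. With centring on the 2329 genes at log2 CPM 4 to 6, whose median was 0.08, 108 genes were called in all, 56 higher (0.539%) and 52 lower, and Fgl1 was the 1 acute-phase gene of the 10 among them. All 10 genes stayed higher on 0.1 Se under both centrings. This outcome was fixed beforehand, since the shift of 0.08 was smaller than the smallest log2 fold change of the 10, 0.26 for Crp.

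The promoters of 5 of the 10 genes, Apcs, Crp, Orm2, Hpx and Lrg1, were in the RefSeq promoter table (GRCm38.p6, 250 bases before to 50 after the gene start). They were searched on both strands for TTCNNNGAA, the core that STAT factors bind, and for TTGCNNAA, a core of C/EBP sites. Matches were found in 3 of them, which are printed here with the match in capitals because both kinds of factor act on acute-phase genes. Apcs (chr1:172895005-172895304, minus strand) held a STAT core starting at −244 from the gene start. Orm2 (chr4:63362199-63362498, plus strand) and Hpx (chr7:105600067-105600366, minus strand) held a C/EBP core starting at −120 and −200.
Apcs: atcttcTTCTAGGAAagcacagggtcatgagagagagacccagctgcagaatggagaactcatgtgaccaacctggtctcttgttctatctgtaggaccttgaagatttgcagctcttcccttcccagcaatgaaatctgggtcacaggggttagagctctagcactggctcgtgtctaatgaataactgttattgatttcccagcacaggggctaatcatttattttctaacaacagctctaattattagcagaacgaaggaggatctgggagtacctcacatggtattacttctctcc
Orm2: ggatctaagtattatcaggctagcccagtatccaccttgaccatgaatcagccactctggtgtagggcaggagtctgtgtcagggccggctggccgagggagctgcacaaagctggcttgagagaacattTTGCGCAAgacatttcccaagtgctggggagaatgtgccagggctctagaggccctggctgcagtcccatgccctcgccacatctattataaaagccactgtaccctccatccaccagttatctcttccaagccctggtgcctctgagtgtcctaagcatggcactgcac
Hpx: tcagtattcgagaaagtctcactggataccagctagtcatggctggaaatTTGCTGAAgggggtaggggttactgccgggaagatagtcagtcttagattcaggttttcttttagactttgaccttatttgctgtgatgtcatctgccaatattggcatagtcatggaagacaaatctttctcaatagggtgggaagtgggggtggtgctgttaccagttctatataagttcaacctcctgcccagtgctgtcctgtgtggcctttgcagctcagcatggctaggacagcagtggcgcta
The STAT core occurs in 8.33% of the 32544 distinct promoters of the table and the C/EBP core in 10.8%. The windows of Crp and Lrg1 held neither. These matches are letters in a window and no measurement of binding.

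The signalling genes upstream of the group were measured in the same libraries. Of 17 listed genes of interleukin-6 and gp130 signalling, 16 had a value, 11 were higher and 5 lower on 0.1 Se, and the median log2 fold change was 0.20. The threshold was passed by 2 of them. Il6ra, the interleukin-6 receptor, rose from 131 to 233 footprints, a log2 fold change of 0.86 with an edgeR adjusted p of 0.0262. Junb, an immediate early transcription factor that Stat3 induces, rose from 87 to 172 footprints, a log2 fold change of 0.98 with an edgeR adjusted p of 0.0110. Of the 3 most abundant other genes of the list, Lifr had a log2 fold change of −0.08, Hnf4a of 0.22 and Jak1 of 0.38, and none was called. Stat3 itself, named after its value was seen, had 0.55 with an edgeR adjusted p of 0.0810. Il6st, the gene of gp130, had −0.11, and Pias3 was the lowest of the 5 lower genes with −0.64. These 2 were also named after their values were seen, and neither was called. Of 19 genes of interleukin-1 and NF-kB signalling, 13 had a value, 6 were higher and 7 lower, and 0 were called by the authors' edgeR test, 0 also having an unadjusted p under 0.05. Their median was −0.07.

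**Figure D4:**
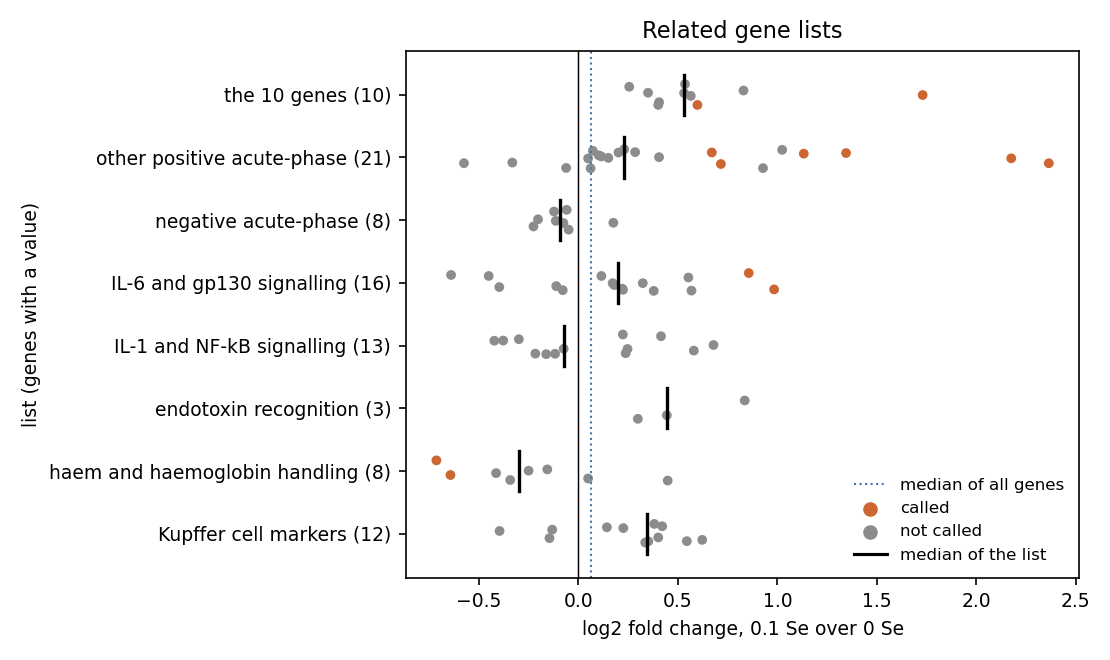
Log2 fold change of 0.1 Se over 0 Se for the genes with a value (points, orange where called) of the 10 acute-phase genes and 7 related lists that leave out the 10, with black bars at list medians and a dotted line at the median of all genes. The medians run from 0.53 for the 10 genes and 0.44 for endotoxin recognition down to −0.30 for haem and haemoglobin handling, and the number with a value is in parentheses.

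Other acute-phase proteins varied more widely than the 10. Of 24 other positive ones 21 had a value, 18 were higher and 3 lower, with a median of 0.23 and a range of −0.58 to 2.36, and 6 were called higher, namely Saa1, Saa2, Saa3, Saa4, Lcn2 and Steap4. The most abundant of the rest, Fga, Fgb and C3, had log2 fold changes of 0.11, 0.23 and 0.06 and were not called. All 8 negative acute-phase proteins had a value, 7 were lower and 1, Trf, was higher. Their median was −0.09, close to that of abundant genes as a class, and 0 were called by the authors' edgeR test, with 0 at an unadjusted p under 0.05. Hepatocyte markers, most of which are abundant secreted proteins or enzymes, had a median of −0.11, with 1 of 8 higher and 0 called. In the authors' edgeR test 1 had an unadjusted p under 0.05. Among these markers Alb, Ttr and Apoa1 are also on the negative list and Serpina1a on the positive one, so the lists are not separate observations.

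Among genes that handle haem and haemoglobin alongside Hp and Hpx, 8 of 11 had a value, 2 (Alas1 and Ambp) were higher and 6 lower on 0.1 Se, and the median log2 fold change was −0.30. The threshold was passed by 2 of them, both lower. Ftl1, the ferritin light chain that stores iron, fell from 4006 to 2442 footprints, a log2 fold change of −0.71 with an edgeR adjusted p of 0.00291. Slc40a1, the iron exporter ferroportin, fell from 2161 to 1383, a log2 fold change of −0.64 with an edgeR adjusted p of 0.0167. Alas1, the first enzyme of haem synthesis in liver, had 6887 and 9399 footprints, a log2 fold change of 0.45 with an edgeR adjusted p of 0.219.

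Glucocorticoids act with interleukin-6 on several acute-phase genes, so genes that they induce in liver were listed too. Of 10 such genes 8 had a value and 3 were called higher, Zbtb16, Fkbp5 and Per1, with log2 fold changes of 2.66, 1.35 and 1.04 and edgeR adjusted p values of 4.37e-17, 9.71e-07 and 4.82e-04. Pck1 and Tat, abundant enzymes on the same list, had 0.16 each and were not called, and the median of the list was 0.21. Markers of other liver cells did not move as one. Of 9 endothelial markers 6 were lower and 0 called, 1 having an unadjusted p under 0.05. Of 7 stellate cell markers with a value 6 were lower, and Reln was called, with a fall of 0.77 on the log2 scale. The part of cell composition or of glucocorticoid signalling in the values of the 10 genes was not tested.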

How the data were processed

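Footprint libraries of liver (8 libraries, 4 mice) were grouped by diet from the sample titles. Per the study's methods, adapters and ribosomal RNA reads were removed, and reads that Bowtie placed uniquely (up to 2 mismatches) were tallied per gene over its longest RefSeq isoform (mm9), without the first 15 and last 3 codons. Counted lengths were 60 bases shorter than the annotated coding sequence for all 10 genes. The authors then compared the diets in edgeR, for which the sources used here name neither version nor test. The only table analysed is that comparison. Its fold column is a linear ratio of 0.1 Se over 0 Se computed by the authors, its log2 fold change is the deposited logarithm of it, its log2 CPM is the authors' average abundance across libraries, and its p-value and Benjamini-Hochberg adjusted p-value are those of the authors' test. These columns are used here as deposited, so the calls are the authors' test results read for the 10 genes, not an independent test. Library depths are unknown.

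The deposited p-values and adjusted p-values gave 10398 tests. Shared p-values of low genes (60 of 60 examined) equalled a 2-sided negative binomial exact test of whole sums. If each diet entered as 2 joined libraries, the dispersion was 0.0121. The biological coefficient of variation (spread between mice relative to the mean) was then 0.11. If each diet entered as 4, the coefficient was 0.156. It would then not be a spread between mice alone, since libraries of a mouse would have counted as independent. From the exact test a pair of whole sums was found for 6719 genes (89.6%). For 762, mainly those with sums above 900 in both diets, estimates came from the fold change with the log2 CPM. The test on these sums called 107 genes, all 107 of them called in the deposited table. This match is no separate check, because the sums were fitted to the deposited values and the deposited fold change was used. Standard errors are the size of the log2 fold change over the normal quantile that matches its p. Scripts ran in Python 3.11.15 with scipy 1.17.1, and were tested on simulated data. Gene positions and coding windows are from GENCODE vM1 on NCBIM37 (the mm9 assembly), promoters from RefSeq on GRCm38.p6. The genes with a value named outside the 10 are each called gene of a list and up to 3 more of highest log2 CPM. Exceptions are Stat3, Il6st and Pias3, named after their values were seen, and Ttr and Serpina1a, named as shared between lists. The genes and lists were chosen with earlier results of these data known. Alternatives were another fold threshold, adjustment, dispersion (taking 2 joined libraries per diet), centring and abundance filter.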

Additional observations from a re-analysis of the deposited data

How the results depend on the processing

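All 10 genes stayed higher on 0.1 Se after both centrings, the alternatives that change a fold change. The shifts were too small to change any sign, so this does not measure stability. Of 59 values of single genes under the dispersion, centring and filter alternatives, 51 stayed on their side of the thresholds. Another 4 passed them only under the alternative and 4 no longer did. Changes of fold threshold or adjustment are not in this count. The 7 genes under 1.5-fold could not be called where only the dispersion or filter changed, so the 51 do not measure stability. The number of the 10 genes called, 2 as deposited, was 1 (Fgl1) with a 2-fold threshold, 1 with Bonferroni adjustment, 1 with a biological coefficient of variation of 0.2, and 1 with genes at log2 CPM 4 to 6 centred on 0. It was 5 with genes at log2 CPM 8 or more centred on 0. With a coefficient of variation of 0.3 the exact test called 0 of them (4 genes in all), with 1 of the 10, Fgl1, at an unadjusted p under 0.05 and an adjusted p of 0.172. It was 2 with no fold threshold and with genes under log2 CPM 3 removed (Cd14 among them), and 3 with counting error alone, Orm2 being added. Over all genes, 107 were called as deposited, 41 with a 2-fold threshold, 34 with Bonferroni adjustment, 298 with counting error alone, 18 with a coefficient of variation of 0.2, and 148 and 108 after centring on genes at log2 CPM 8 or more and at 4 to 6. Leaving out a mouse was planned and not run, because the table analysed holds no value per library. No paired analysis was possible because no mouse number occurs in both diets and no value per mouse was used. Depth limited Cd14 most, with a standard error of 0.548 on the log2 scale against 0.160 to 0.251 for the other 9 genes.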
